A study of Mus musculus with 4 samples.

Results

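Basement membrane and adhesion receptor genes were taken as 41 gene symbols covering the collagens, laminins, nidogens, proteoglycans and Fras/Frem proteins of basement membranes and the integrins and dystroglycan that bind them. All 41 were found by symbol among the 23107 genes of the tables. The series measured RNA from tdTomato-positive cells sorted from the dental follicle, the mesenchymal sheath of a developing tooth, of mouse mandibular molars at postnatal day 8, with tamoxifen given at postnatal day 3. All cells carried the tdTomato mark, which the labels tie to PTHrP-positive follicle cells. Controls were conditional heterozygotes, labelled Ptch1(+/-) and named cHet (n = 2 libraries), and they were set against conditional knockouts, labelled Ptch1(-/-) and named cKO (n = 2 libraries). Every group was therefore treated with tamoxifen and carried at least 1 targeted Ptch1 allele, and no group with both alleles intact is among the samples. The recombinase line and the number of animals behind a library are not given in the sources used here.

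A basement membrane is a thin sheet of matrix that underlies epithelia and surrounds vessels, nerves, muscle and fat cells. Laminin trimers polymerise on the cell surface, type IV collagen forms a second network, and nidogens and perlecan join them. Integrins, heterodimers of an alpha and a beta chain, and dystroglycan hold cells to it. In the tooth such a sheet separates the enamel epithelium from the future pulp before hard tissue forms, and the epithelial root sheath from the follicle.

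Values are scaled counts, gene counts divided by 1 factor per library, unless FPKM is named. FPKM is relative to transcript length and is used to compare levels between genes. Libraries keep their table names, cHet_0, cHet_1, cKO_0 and cKO_1. Scaled totals ran from 69361760 to 71228342. The number of genes reaching an FPKM of 1 was 9850 in cHet_1 and 11355 to 12360 in the other 3, and cHet_1 had 34 genes at 0 that reached 100 in each other library, against 0 to 3. Ptch1, the targeted hedgehog receptor gene, stood at 12867 and 5438 in cHet compared with 22420 and 23341 in cKO, and a gene-level value does not show whether an exon was deleted. Markers of follicle and mesenchyme were present in all libraries (14 of 14 above 0), their sum at 11.3% and 12.1% of the scaled counts in cHet against 8.09% and 7.79% in cKO. The collagen genes Col1a1, Col1a2 and Col3a1 made up most of that sum in every library. Of the 14 markers, 5 had a log2 difference of cKO over cHet above 0 and 9 below (median -0.24). Both cKO libraries lay above both cHet libraries for 2 (Twist1 and Dlx5). They lay below for 6 (Dcn, Lum, Postn, Col1a1, Col1a2 and Pdgfra). These were 14.3% and 42.9% of the markers, against 18% and 14.2% of all genes tested, and 0 passed the test over all genes given below. Pthlh, the PTHrP gene, stood at 9253 and 15879 in cHet compared with 12267 and 8613 in cKO. Dental epithelium markers were abundant too, all 19 of 19 above 0 in every library and their sum between 0.954% and 4.1% of the scaled counts. The enamel matrix gene Amelx had the highest scaled counts among them in every library.

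The 41 genes held 1.05% and 0.976% of the scaled counts in cHet_0 and cHet_1 and 1.18% and 1.25% in cKO_0 and cKO_1. Per length, Nid1, which encodes the laminin and collagen IV linker nidogen-1, had the highest level (mean FPKM 374). It was followed by the integrin beta chain genes Itgb5 (219) and Itgb1 (192), the type IV collagen chain genes Col4a2 (121) and Col4a1 (106), and Npnt, the gene of the integrin ligand nephronectin (90.7). The order of neighbours among these was not stable over libraries. Itgb1 was listed at an FPKM of 309 and 282 in cHet_0 and cKO_0 and at 81.1 and 95.2 in cHet_1 and cKO_1, while its scaled counts were 86675, 81949, 73451 and 73718 in the same order. FPKM per scaled count of a gene followed the column number, correlating at 0.999 between cHet_0 and cKO_0 and at 0.995 between cHet_1 and cKO_1, against 0.868 to 0.908 for the other pairs (Pearson, across 8707 genes, which are not independent replicates). At the other end Col4a3 was listed at 0 in every library, and Col4a4 at 0.81, 3.14, 78.6 and 1.13. These 2 genes encode chains of the collagen IV network of kidney and lung, and both fell short of the filter for the test (10 or more scaled counts in 2 or more libraries), which the other 39 passed.

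**Figure D1:**
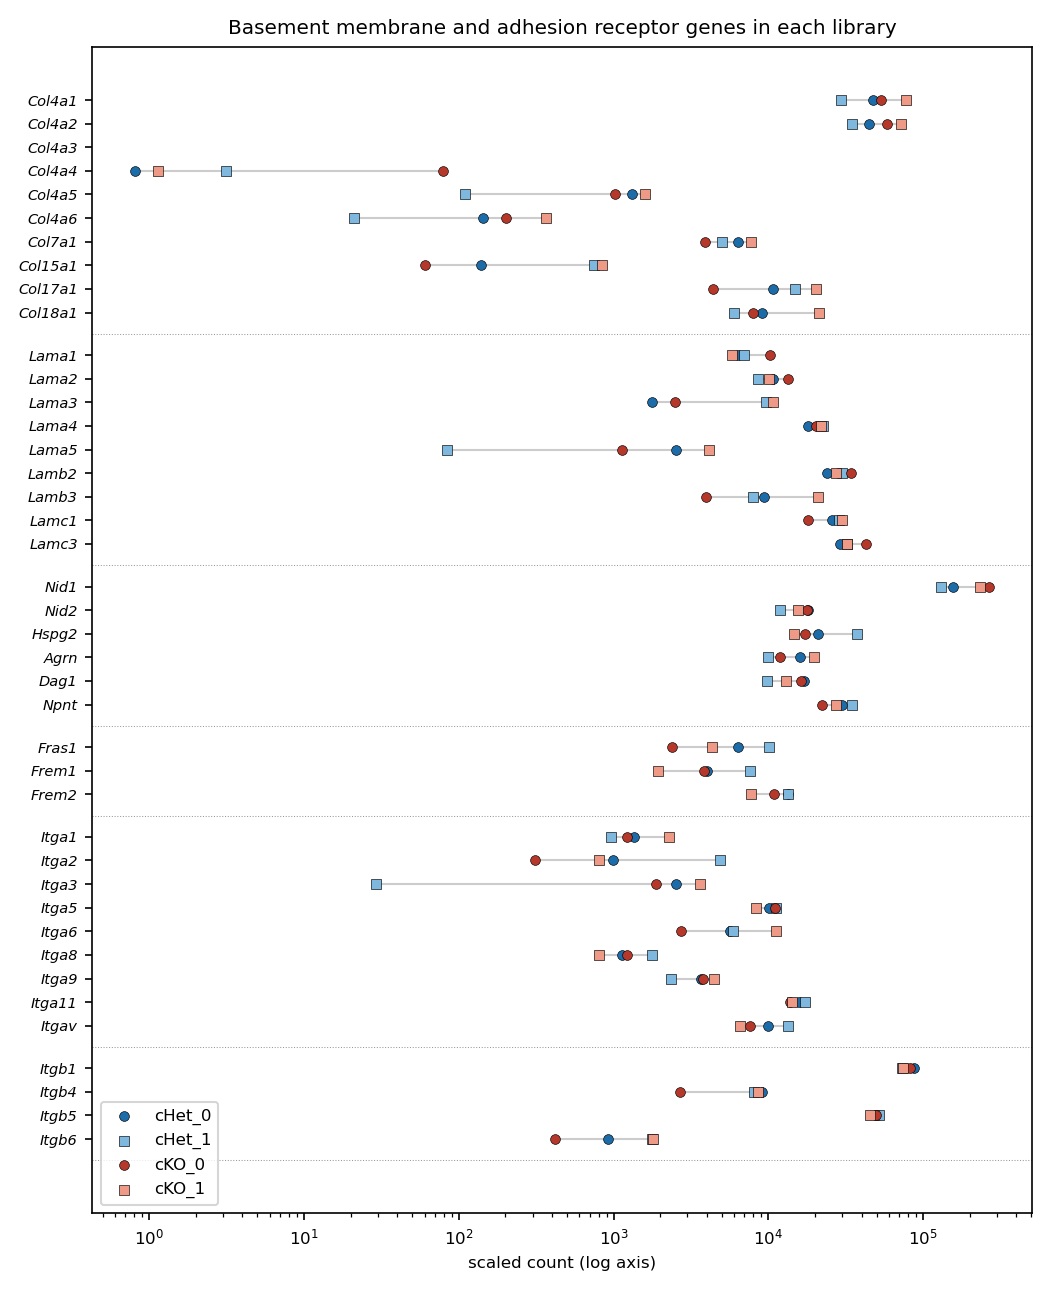
Scaled count (log axis) of each basement membrane and adhesion receptor gene in the 4 libraries, grouped from top to bottom as collagens, laminin chains, linkers and proteoglycans, Fras and Frem, integrin alpha chains and integrin beta chains. Each point is 1 library, and values of 0 (Col4a3) are not drawn; Nid1 is the highest gene, and Lama5, Itga3, Col4a5 and Col4a6 have an isolated low point in cHet_1.

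In the comparison of cKO with cHet, the collagen IV chains Col4a1 and Col4a2 and nidogen-1 had higher values in both knockout libraries, by 1.73-fold, 1.64-fold and 1.75-fold (log2 0.79, SE 0.31; 0.71, SE 0.25; 0.81, SE 0.27). The 3 Fras/Frem genes, perlecan (Hspg2) and the integrin chain Itgav had lower values in both, from a log2 difference of -0.55 for Frem2 to -1.33 for Fras1. None of these differences passed the test over all genes. In limma, fitted to log2(scaled count + 3), 0 of the 39 tested members were higher and 0 lower in cKO at a Benjamini-Hochberg adjusted p under 0.05, where 0% of the 14297 genes tested passed in either direction, and the lowest adjusted p was 0.913 for members and for all genes. At an unadjusted limma p under 0.05 there were 3 members higher (Nid1, Col4a2 and Col4a1) and 3 lower (Fras1, Hspg2 and Itgav), against 1.54% and 1.49% of all genes. Without cHet_0, 3 members were higher at an adjusted limma p under 0.05 (Itga3, Lama5 and Nid1) and 2 lower (Hspg2 and Itga2), while 1061 and 78 of all genes passed, and the lone cHet library was then assumed to vary like the cKO pair. The standard error of members was smaller, with a median of 0.36 against 0.74. Among the 8963 tested genes whose scaled counts averaged 1000 or more, 37 members included, 4.23% reached that unadjusted p.

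The 2 libraries of a group did not overlap those of the other group for 6 members higher in cKO and 9 lower, or 15.4% and 23.1% of the 39, against 18% and 14.2% of all genes tested. Both directions together came to 38.5% of members against 32.2% of all genes. With 2 libraries against 2 an exact permutation test cannot give a two-sided p below 0.333. The members' median log2 difference was 0.058, with 20 above 0 and 19 below, against 0.12 over all genes. The members' median absolute log2 difference was 0.48 between the group means, 0.48 between the cHet libraries and 0.64 between the cKO libraries, against 0.56, 0.87 and 0.58 over all genes tested. A difference of means of 2 libraries varies less than one of single libraries, so the first of these values is not on the same footing as the others. Nothing in the sources used here says that the libraries were made from different animals. The p-values therefore speak of library-to-library spread, part of which may be technical.

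**Figure D2:**
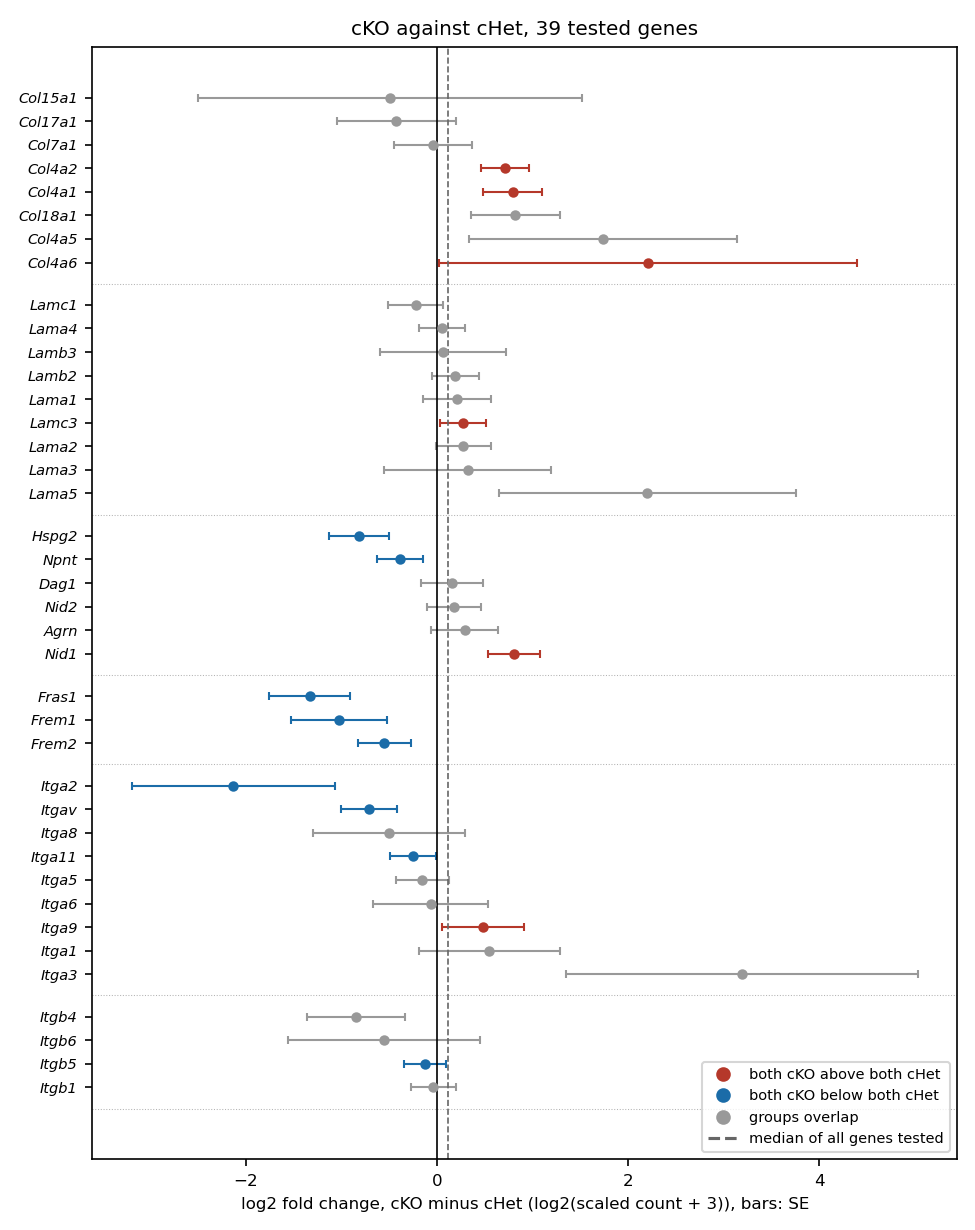
Log2 fold change of cKO over cHet with its limma standard error for the 39 tested genes, by role from top to bottom as in the plot of values, with red for both cKO libraries above both cHet libraries, blue for both below and grey for overlap. The dashed line is the median of all genes tested (0.12); Fras1, Frem1 and Frem2 all lie below 0. The longest bars belong to Col4a6, Col15a1 and Itga3.

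Among the collagens, the pair that makes the common type IV network stood out in level. Col4a1 (chromosome 8, 11198423 to 11312826 on the minus strand of mm10) had scaled counts of 47177 and 29234 in cHet against 53506 and 77457 in cKO. Col4a2 (chromosome 8, 11312805 to 11449287, plus strand) was listed at 44730 and 34723 in cHet compared with 58267 and 71739 in cKO. In both genes cHet_1 was lowest, then cHet_0, cKO_0 and cKO_1, and the groups did not overlap in scaled counts or in FPKM. Their FPKM ratio, Col4a1 over Col4a2, was 1.04 and 0.626 in cHet against 0.894 and 0.889 in cKO. Their unadjusted limma p was 0.0328 and 0.0207 (adjusted p 0.913 for each). Without cHet_1 the log2 difference of Col4a1 was 0.45 (the lowest of the 4 values with 1 library left out, the highest being 1.14), and that of Col4a2 lay between 0.53 and 0.90. The genes are transcribed head to head, and their annotated first exons overlap by 22 bases, at chr8:11312805-11312826 (GRCm38.p6, plus strand as Col4a2 reads), the stretch where both transcripts begin. It is shown because both genes had the same order of libraries, and counting without strand could not tell these bases apart.
Col4a1 and Col4a2 shared start: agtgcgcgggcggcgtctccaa

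Endothelial cells and pericytes make type IV collagen as well. Of 13 endothelial markers 9 were above 0 in every library, and their sum was 0.00395% and 0.00899% of the scaled counts in cHet_0 and cHet_1 and 0.00553% and 0.0224% in cKO_0 and cKO_1. Of 10 tested, 9 were above 0 and 1 below (median log2 difference 2.91), 0 passed, and 4 were higher in both cKO libraries (Pecam1, Cdh5, Esam and Cldn5) and 0 lower in both. The defining marker Pecam1 stood at 0 and 5.23 in cHet compared with 299.5 and 1278 in cKO. The junction gene Cdh5 was at 40.5 and 69.1 in cHet compared with 471 and 874 in cKO. Erg was at 0 in 3 libraries, and Kdr, the gene with the highest scaled counts of the list, overlapped at 1900 and 4054 against 1944 and 3145. Egfl7, of highest mean FPKM in the list, overlapped too, at 171 and 628 in cHet against 753 and 534 in cKO. Tie1 stood at 4.05 and 1620 in cHet against 4.31 and 2125 in cKO. The 10 pericyte and smooth muscle markers summed to 0.131% and 0.128% in cHet against 0.138% and 0.161% in cKO, with 8 of 9 tested above 0 (median 0.35), and only Des was at 0, in both cHet libraries. The part of these cells in the collagen IV and nidogen values was not tested. In bulk RNA, fewer cells of a type and less RNA per cell cannot be told apart.

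The other collagen IV pairs were low or absent. Col4a5 and Col4a6 (X chromosome, head to head with 1308 bases between them), the chains of basement membranes of skin and smooth muscle, were listed at 1313 and 109 in cHet compared with 1022 and 1597 in cKO for Col4a5. Col4a6 was at 143 and 20.9 in cHet against 200.4 and 365 in cKO. The log2 differences of 1.74 (SE 1.40) and 2.21 (SE 2.19) rested on the low values of cHet_1, and without that library they were -0.039 and 0.90. In FPKM Col4a5 exceeded Col4a6 by 4.22-fold to 9.48-fold over the libraries.

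Col18a1, whose product carries the endostatin domain, stood at 9036 and 5959 in cHet compared with 7910 and 21269 in cKO, so that 1 cKO library was higher and the other lay between the cHet values (log2 difference 0.82, SE 0.47; 0.11 without cKO_1). Col15a1, encoding a related collagen of vessels and muscle, differed 13.9-fold between the cKO libraries and 5.37-fold between the cHet libraries, at 138 and 743 in cHet against 60.3 and 841 in cKO. The anchoring collagens Col7a1 and Col17a1 are described with the epithelial genes.

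Laminin chain genes overlapped between the groups for all but 1 chain. Of 9 tested chains 8 were above 0 and 1 below, with a median log2 difference of 0.21, and 0 passed. The exception was Lamc3, the gamma-3 chain, which had the highest level of the laminins per length together with Lamb2 (mean FPKM 82 and 80.8). Its values were 29205 and 32331 in cHet compared with 42553 and 32349 in cKO, so that cKO_1 passed cHet_1 by a margin too small to remain after median-of-ratios or TMM rescaling. Lamb2, the beta-2 chain, stood at 24072 and 29745 in cHet against 34262 and 27294 in cKO. Lamc1, the gamma-1 chain shared by most laminins, stood at 25633 and 28412 in cHet compared with 17938 and 29858 in cKO. Lamc1 had the lower FPKM of this pair in every library, at 0.361 to 0.775 of Lamb2.

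The mesenchymal and vascular alpha-4 chain gene Lama4 varied least of the laminins, 1.25-fold from the lowest library to the highest, at 18017 and 22594 in cHet against 20239 and 21787 in cKO. The alpha-2 chain gene Lama2, known from muscle and nerve, stood at 10751 and 8607 in cHet compared with 13455 and 10080 in cKO. Lama1, the alpha-1 chain of early epithelia, stood at 6341 and 6988 in cHet against 10281 and 5785 in cKO, highest in cKO_0 and lowest in cKO_1. Lama5, the alpha-5 chain of mature epithelial and vascular membranes, was nearly missing from cHet_1: 2520 and 83.7 in cHet against 1126 and 4105 in cKO. Its log2 difference was 2.2 (SE 1.55) with all libraries and -0.23 without cHet_1.

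Of the linkers, nidogen-1 was the gene with the lowest p. Nid1 (chromosome 13, 13437551 to 13512269, plus strand) stood at 156963 and 130123 in cHet compared with 267415 and 233627 in cKO, both cKO libraries above both cHet libraries. The log2 difference was 0.81 (SE 0.27, unadjusted limma p 0.0181, adjusted p 0.913) and lay between 0.67 and 0.94 when single libraries were left out. Nid1 alone made up 21.5% and 18.7% of the scaled counts of all 41 genes in cHet against 32.5% and 26.4% in cKO. In FPKM the groups overlapped, at 363 and 172 in cHet compared with 618 and 344 in cKO. FPKM per scaled count followed the column number, and between columns of the same number the cKO value of Nid1 was the higher. Nid2, encoding the related nidogen-2, did not share this pattern and stood at 17977 and 11849 in cHet against 17668 and 15474 in cKO. The FPKM ratio of Nid1 to Nid2 was 7.11 and 6.52 in cHet compared with 12.1 and 9.55 in cKO.

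Hspg2 (chromosome 4, 137468769 to 137570630, plus strand), the gene of the heparan sulfate proteoglycan perlecan, stood at 20947 and 37505 in cHet against 17293 and 14745 in cKO. The cHet libraries differed more from each other than cHet_0 did from cKO, and the log2 difference of -0.81 (SE 0.31, unadjusted limma p 0.032, adjusted p 0.913) was -0.39 without cHet_1 and -1.23 without cHet_0. Agrn, the gene of the proteoglycan agrin, overlapped at 15910 and 9885 in cHet compared with 11887 and 19824 in cKO. Dag1, encoding dystroglycan, the non-integrin laminin receptor, overlapped at 17001 and 9803 in cHet against 16165 and 12905 in cKO. Npnt, an integrin alpha-8 ligand, was lower in both cKO libraries at 29728 and 34765 in cHet against 22193 and 27390 (log2 difference -0.38, SE 0.24). Itga8, its receptor gene, overlapped at 1127 and 1765 in cHet against 1227 and 808 in cKO. Npnt exceeded Itga8 in FPKM by 29.4-fold to 90.5-fold over the libraries.

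Upstream sequence is shown for 3 genes whose groups did not overlap, Nid1 on the higher side and Hspg2 and Frem2 on the lower side. RefSeq promoter windows (GRCm38.p6) were found for 31 of the 41 genes, and the bases from 250 before the annotated start up to the first GENCODE exon are printed in the gene's own direction. The stretches are chr13:13437352-13437550 (plus strand, 199 bases), chr4:137468553-137468768 (plus strand, 216 bases) and chr3:53657356-53657605 (minus strand, 250 bases). Capitals mark 2 motifs searched on both strands, the GC box GGGCGG or CCGCCC, which Sp1 binds, and the CCAAT box CCAAT or ATTGG, which NF-Y binds; no marked matches overlap.
Nid1: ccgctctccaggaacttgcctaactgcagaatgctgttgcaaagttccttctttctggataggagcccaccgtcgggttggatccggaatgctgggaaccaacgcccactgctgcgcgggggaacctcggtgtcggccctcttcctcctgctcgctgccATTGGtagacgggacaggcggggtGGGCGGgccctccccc
Hspg2: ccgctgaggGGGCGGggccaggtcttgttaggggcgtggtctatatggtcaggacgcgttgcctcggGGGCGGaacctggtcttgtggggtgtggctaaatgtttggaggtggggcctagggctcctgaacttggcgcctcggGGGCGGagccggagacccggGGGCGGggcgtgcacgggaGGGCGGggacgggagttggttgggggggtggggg
Frem2: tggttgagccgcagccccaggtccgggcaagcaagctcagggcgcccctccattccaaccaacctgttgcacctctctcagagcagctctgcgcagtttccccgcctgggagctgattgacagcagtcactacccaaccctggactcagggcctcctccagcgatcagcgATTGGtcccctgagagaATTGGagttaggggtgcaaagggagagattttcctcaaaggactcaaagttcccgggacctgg
Nid1 had 1 GC box and 1 CCAAT box, Hspg2 5 GC boxes and 0 CCAAT boxes, and Frem2 0 GC boxes and 2 CCAAT boxes. Over the 32841 RefSeq windows, stretches of the same length and place held a GC box in 24.4%, 27.9% and 32.7% and a CCAAT box in 28.2%, 30.5% and 33.9%, in the order of the 3 genes. GC content was 63.8%, 70.8% and 59.6%. The Gli consensus GACCACCCA or TGGGTGGTC was not among the letters of the 3 stretches and was in 0.192% to 0.225% of all windows. These matches are descriptions of sequence and not sites of binding.

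The Fras/Frem genes had lower values in cKO in all 3 cases, without overlap of the groups. Their products form a complex under epithelia that joins them to mesenchyme, and their loss is known to cause blistering and Fraser-type syndromes. Fras1 (chromosome 5, 96373955 to 96784728, plus strand) stood at 6379 and 10091 in cHet compared with 2366 and 4301 in cKO, a log2 difference of -1.33 (SE 0.43). It had the lowest p of all members (unadjusted limma p 0.014, adjusted p 0.913), and ranked 98 among the 14297 genes tested. Frem2 (chromosome 3, 53513938 to 53657355, minus strand) stood at 13478 and 13372 in cHet against 10820 and 7776 in cKO (log2 difference -0.55, SE 0.28). Its cHet values were nearly equal, and its cKO values lay further apart. Frem1 (chromosome 4, 82897920 to 83052339, minus strand) stood at 4015 and 7600 in cHet compared with 3831 and 1930 in cKO (log2 difference -1.02, SE 0.50), so that cHet_0 and cKO_0 lay close together.

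With single libraries left out, Fras1 lay between -1.76 and -0.90, Frem1 between -1.52 and -0.53 and Frem2 between -0.79 and -0.31. In FPKM Fras1 did not overlap between the groups (5.42 and 5.83 against 2.02 and 2.59), and Frem1 and Frem2 did. Frem1 was at 5.89 and 5.23 in cHet against 5.48 and 1.54 in cKO, and Frem2 at 14.9 and 9.72 against 12 and 6.09. FPKM per scaled count followed the column number, and between columns of the same number both genes were lower in cKO. Of the 19 dental epithelium markers 7 were above 0 and 12 below (median log2 difference -0.37), 0 passed, and 1 did not overlap between the groups. That marker, the adhesion gene Epcam, was lower in both cKO libraries at 4828 and 2448 against 621 and 1002. Krt14, the basal keratin gene, overlapped at 24804 and 54315 against 9079 and 83386. The 4 odontoblast markers were all below 0 (median -3.06), and 0 passed. The dentin gene Dspp and Phex did not overlap between the groups, and Dmp1 and Nes did. The 4 markers summed to 0.0801% and 0.111% of the scaled counts in cHet compared with 0.00814% and 0.0251% in cKO, with none at 0. The part of either cell type in the Fras/Frem values was not tested.

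**Figure D3:**
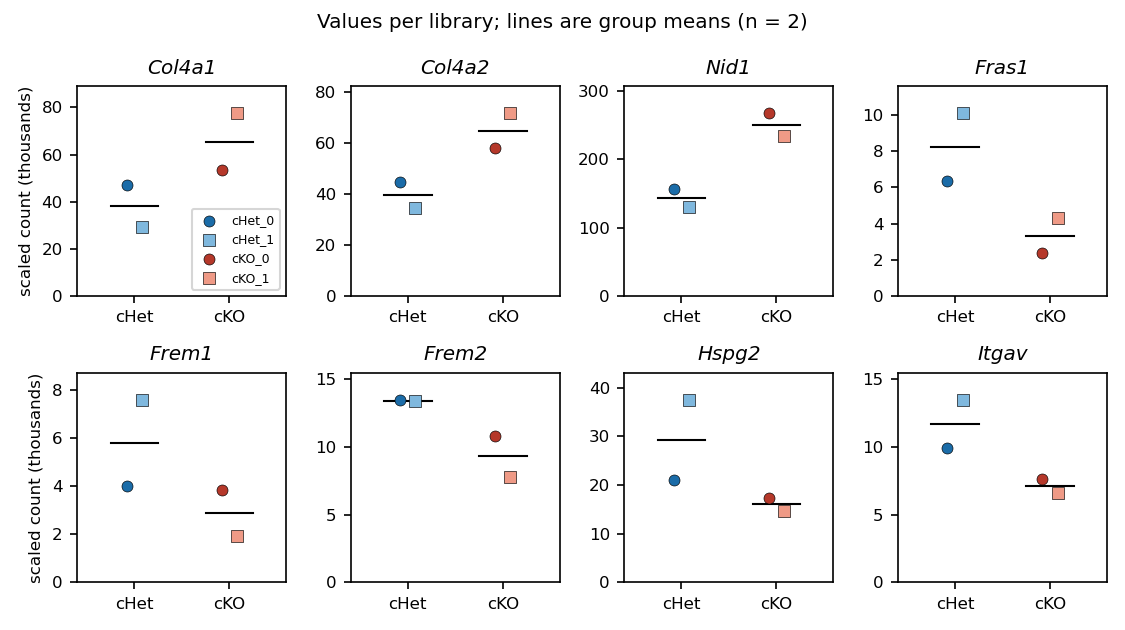
Scaled counts (axis in units of 1000) of 8 genes whose groups did not overlap, 1 panel per gene with its own vertical axis from 0. Points are the libraries and lines the group means (n = 2); Col4a1, Col4a2 and Nid1 lie higher in cKO, and Fras1, Frem1, Frem2, Hspg2 and Itgav lower, Frem1 by a narrow margin between cHet_0 and cKO_0.

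Integrin alpha chain genes had 3 values above 0 and 6 below, with a median log2 difference of -0.15, and 0 of 9 passed. Itgav (chromosome 2, 83724397 to 83806916, plus strand), the chain of receptors for vitronectin, osteopontin and latent TGF-beta, stood at 9923 and 13457 in cHet against 7618 and 6556 in cKO. Its log2 difference was -0.71 (SE 0.29, unadjusted limma p 0.0422, adjusted p 0.913), and it lay between -0.93 and -0.49 with single libraries left out. In FPKM it overlapped, at 21.1 and 6.85 in cHet compared with 15.7 and 4.03 in cKO. FPKM per scaled count followed the column number, and between columns of the same number the cKO value of Itgav was the lower.

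The collagen receptor chains did not share a direction. Itga11, the receptor chain for fibrillar collagen in fibroblasts and periodontal ligament, was the most abundant alpha chain per length (mean FPKM 41.9) and stood at 15850 and 17253 in cHet against 13724 and 14107 in cKO, a difference of -0.25 (SE 0.24) without overlap. Itga2 stood at 984 and 4880 in cHet compared with 309 and 805 in cKO (log2 difference -2.13, SE 1.06), with cHet_1 well above the other 3 libraries and a difference of -0.97 without it. Itga1 overlapped at 1345 and 965 in cHet against 1215 and 2283 in cKO.

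Among the remaining alpha chains, Itga5, the fibronectin receptor chain, overlapped at 10076 and 11215 in cHet compared with 10968 and 8365 in cKO. Itga9, a receptor chain for tenascin, was higher in both cKO libraries, by a narrow margin, at 3671 and 2338 in cHet against 3804 and 4422 in cKO (log2 difference 0.48, SE 0.43). Itga3, a laminin receptor chain, had the largest log2 difference of all members at 3.19 (SE 1.84). It came from cHet_1, where Itga3 was listed at 29.3 against 2515 in cHet_0 and 1876 and 3603 in cKO, and without cHet_1 it was 0.048. For Lama5, Itga3, Col4a5 and Col4a6 alike, cHet_0 exceeded cHet_1 by 6.85-fold to 85.8-fold. Library cHet_1 was the lowest library for 15 of 39 members and for 44.5% of all genes tested.

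The beta chain genes were all below 0 (4 of 4, median log2 difference -0.34), and 0 passed. Itgb1, the partner of most alpha chains, stood at 86675 and 73451 in cHet compared with 81949 and 73718 in cKO, a log2 difference of -0.038 (SE 0.24) that turned to 0.049 in FPKM. Itgb5, a partner of Itgav, varied least of all members, 1.14-fold over the libraries, at 51402 and 51935 in cHet against 49472 and 45577 in cKO. Itga5 relative to Itgb1 in FPKM was 0.105 and 0.128 in cHet_0 and cKO_0 and 0.442 and 0.292 in cHet_1 and cKO_1. This FPKM ratio followed the column number and not the genotype, and FPKM per scaled count followed the number as well. The scaled counts of Itga5 did not, at 10076 and 10968 in cHet_0 and cKO_0 and 11215 and 8365 in cHet_1 and cKO_1.

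The genes of epithelial anchorage ranged widely between the cKO libraries. The set of 7 was gathered for its known roles with the values in view: Itga6 and Itgb4, the hemidesmosome integrin; Col17a1, its transmembrane collagen; Lama3 and Lamb3, chains of laminin-332; Col7a1, the anchoring fibril; and Itgb6, an epithelial integrin. Col17a1 stood at 10659 and 14965 in cHet compared with 4357 and 20367 in cKO. Lamb3 stood at 9403 and 7977 in cHet against 3937 and 20814 in cKO. In both genes 1 cKO library lay below and the other above the cHet pair.

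Itga6 had the same order, with 5626 and 5919 in cHet compared with 2715 and 11204 in cKO. Itgb4 stood at 9134 and 8070 in cHet against 2675 and 8524 in cKO, and in FPKM Itga6 was at 0.396 to 1.45 of its partner Itgb4. Col7a1 ran from 3888 in cKO_0 to 7709 in cKO_1, with 6335 and 5014 in cHet. Lama3 departed from the others, since it was lowest in cHet_0: 1757 and 9617 in cHet compared with 2479 and 10687 in cKO. Itgb6 stood at 916 and 1773 in cHet against 418 and 1802 in cKO.

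For all 7, cKO_1 exceeded cKO_0, by 1.98-fold to 5.29-fold (median 4.31), where the median ratio of all genes tested was 0.968. Library cKO_0 was the lowest for 6 of 7 and cKO_1 the highest for 6 of 7. Both held for 5 of 7. Over all genes tested cKO_0 was the lowest for 18.7% and cKO_1 the highest for 27%, and both held for 5.81%. The counts of the 7 describe genes gathered with these values seen. Krt14 differed 9.18-fold between the same libraries, and cKO_0 was the lowest library for 14 of the 19 dental epithelium markers, Krt14 among them. Of the other 5, the enamel genes Amelx, Ambn and Enam were lowest in cHet_0 and Amtn and Klk4 in cHet_1. Library cKO_1 was the highest for 12 of the 19. The summed epithelial markers were 0.954% and 2.24% in cHet compared with 1.44% and 4.1% in cKO. Their part in these differences was not tested. The log2 differences between the groups ran from -0.85 (Itgb4, SE 0.51) to 0.32 (Lama3, SE 0.88), and 6 of the 7 (all but Itgb4) changed sign when a single library was left out.

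**Figure D4:**
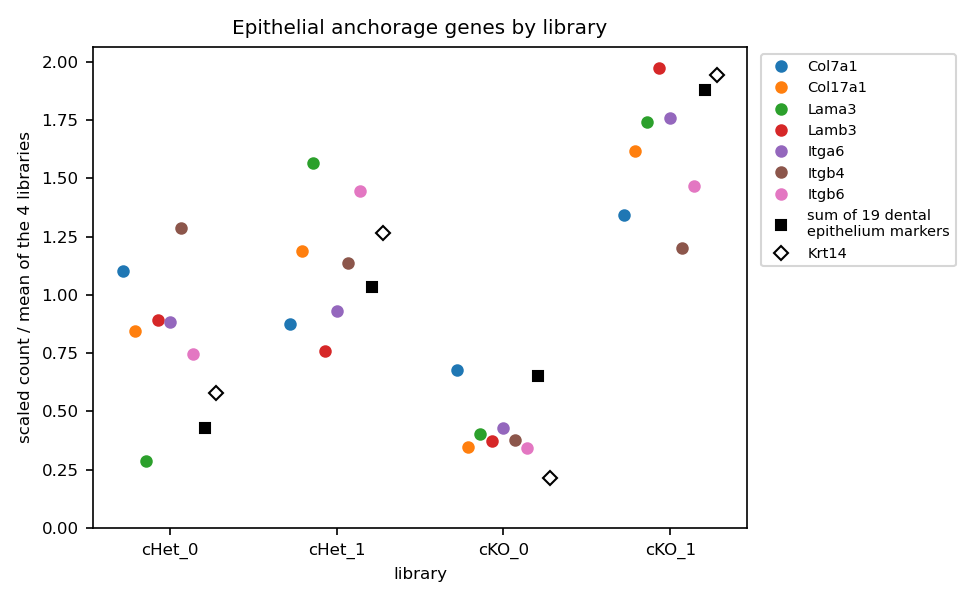
Scaled count of the 7 epithelial anchorage genes in each library, divided by the gene's mean over the 4 libraries, with the basal keratin gene Krt14 (diamonds) and the sum of 19 dental epithelium markers (squares) treated alike. In cKO_0 the 7 genes and Krt14 lie below their mean and in cKO_1 above it; Lama3 is also low in cHet_0.

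**Figure D5:**
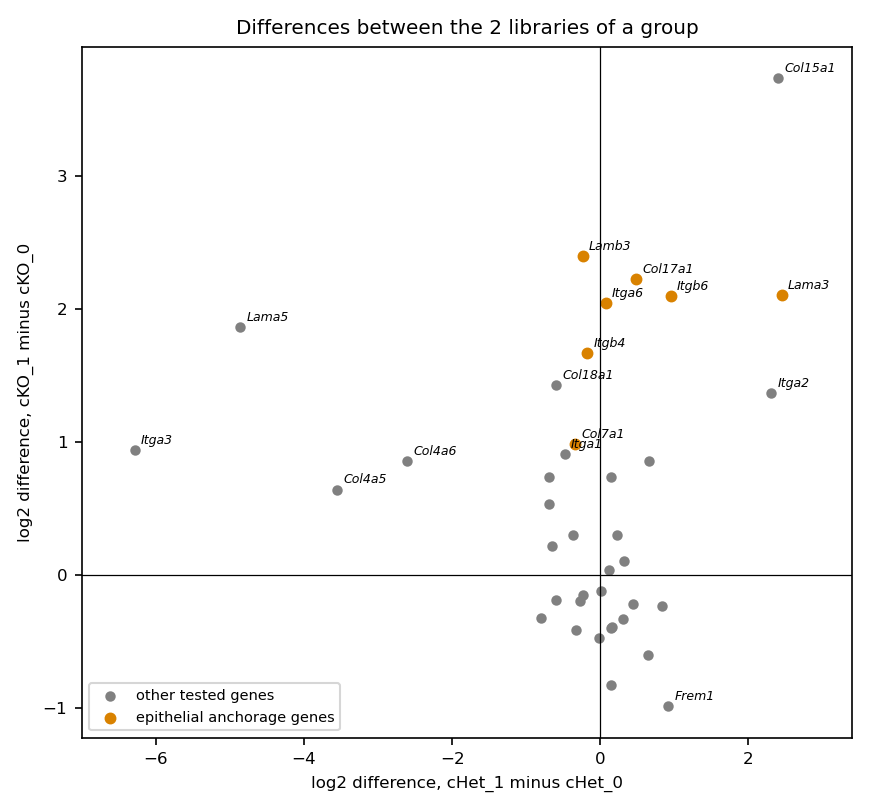
Log2 difference between the 2 libraries of cHet (horizontal) and of cKO (vertical) for the 39 tested genes on the log2(scaled count + 3) scale, with names at the points far from 0. The epithelial anchorage genes lie above 0 on the vertical axis, and Lama5, Itga3, Col4a5 and Col4a6 lie far to the left, where cHet_1 is the lower library.

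Related genes outside the 41 gave no call either. Of 18 tested genes in a list of 20 other basement membrane components, 10 were above 0 and 8 below (median log2 difference 0.070) and 0 passed in either direction. Sparc, a collagen IV-binding matricellular protein and the gene of highest mean FPKM in the list, stood at 482392 and 543177 in cHet against 354506 and 361288 in cKO. Leprel1 (P3h2), the prolyl 3-hydroxylase that acts on collagen IV, was lower in both cKO libraries at 2204 and 1398 in cHet compared with 144 and 768 in cKO, and Vwa1, a perlecan-binding protein, was higher at 632 and 6.28 against 903 and 3437. Ltbp4, which binds latent TGF-beta to the matrix, stood at 51606 and 60633 in cHet against 51241 and 53629 in cKO. Of 21 genes of the integrin adhesion complex 14 were above 0 and 7 below (median 0.25), and 0 passed. Zyx, the mechanosensitive zyxin, stood at 11765 and 7588 in cHet compared with 21569 and 15228 in cKO, and the scaffold gene Bcar1 at 8161 and 8480 against 5139 and 4818. Ilk, the integrin-linked kinase gene, and the actinin gene Actn4 overlapped, at 24455 and 24388 against 27703 and 20940 and at 56084 and 40340 against 59505 and 53480.

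Of 17 tested matrix receptors and hemidesmosome genes in a list of 18, 7 were above 0 and 10 below (median -0.17), and 0 passed. The syndecan gene Sdc3 was lower in both cKO libraries (27605 and 29582 in cHet, 13558 and 18870 in cKO), whereas Sdc1, of highest mean FPKM in the list, overlapped (40626 and 35806 against 39772 and 50278). Dst, the gene of the hemidesmosome plakin dystonin, stood at 7327 and 17954 in cHet against 6611 and 5893 in cKO, and the laminin receptor gene Bcam at 17387 and 11371 against 5059 and 14162. Of 9 tested integrins in a list of 13 others, 6 were above 0 and 3 below, with a median of 1.23 that rested on low genes and was -1.04 over those that averaged 1000 scaled counts or more. Itga7, a laminin receptor chain of muscle and Schwann cells, stood at 27.5 and 3.14 in cHet compared with 527.9 and 985 in cKO. Itga10, a cartilage collagen receptor chain, stood at 615 and 1227 in cHet against 8.62 and 298 in cKO. Of 7 skeletal muscle markers, Myod1, Myog, Pax7, Ckm and Myh3 were at 0 in every library. Of 10 Schwann cell markers 8 were above 0 in every library, and they summed to 0.00496% and 0.000973% of the scaled counts in cHet compared with 0.0108% and 0.034% in cKO, with Mal at 0 in 3 libraries and Gfra3 in cHet_0. All 8 tested were above 0 (median log2 difference 2.97), 5 of them without overlap, and 0 passed. Their part in the Itga7 values was not tested.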

How the data were processed

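RNA of tdTomato-positive dental follicle cells was isolated with a PicoPure kit, amplified with SMART-Seq v4 and made into Nextera XT libraries, per the labels' protocols. The submitters' processing notes name mm10 as the build and list, without roles, TopHat2 (2.0.13) and Bowtie2 (2.2.1), then DESeq2, HTSeq, Cuffdiff, Cufflinks and FastQC. Main values are the deposited scaled counts, a signal made by the authors from counts with 1 divisor for each library. Neither the origin of that divisor nor the strand setting of the counting is given in the sources used here. Of the 41 members 15 share exon bases with another annotated gene. The authors also deposited FPKM values, used for levels and as an alternative. Another 4 tables, with 16 per-sample columns whose names fit none of the labels, were left out. Column numbers start at 0 but those in the titles at 1, and each column was therefore assigned to its group alone.

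The usable tables hold no raw counts, so limma (version 3.58.1 under R 4.3.3), trend option on, modelled log2(scaled count + 3) for the 14297 genes that reached 10 in 2 or more libraries, with group as the only term, two-sided p-values and Benjamini-Hochberg adjustment over all genes (threshold 0.05). Fold changes on this scale understate those of low genes. The scaled totals (69361760 to 71228342) and their smallest steps imply 62.3 to 85.7 (in units of 1e6) reads. These are reads after amplification, and their number does not give the number of RNA molecules sampled. Precision was therefore taken from the spread between libraries alone. Members and lists were chosen with earlier results of these data known. Named genes were, in each role, up to 4 members of lowest p and 3 of highest mean FPKM, with partner chains; in each other list, up to 2 of each; in marker lists, up to 3 of highest mean FPKM; and Ptch1. The other members' library values, and those of Pthlh, Pecam1, Cdh5 and Epcam, were added after their values were seen. Alternatives were other pseudocounts, filters, rescalings, library weights, FPKM, a replicate block and leaving out each library. Leukocyte markers summed to 0.00231% and 0.0112% of scaled counts in cHet and 0.00166% and 0.0172% in cKO; 2 of 8 were at 0 in a library. Coordinates are from GENCODE vM21, 1-based.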

Additional observations from a re-analysis of the deposited data

How the results depend on the processing

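Over the alternatives with all 4 libraries, no member passed the threshold, and 4 members with differences near 0 changed sign: Lama4 (-0.047 with median-of-ratios and -0.042 with TMM rescaling), Lamb3 (-0.041 and -0.036), Itga6 (0.021 with both FPKM pseudocounts and with the FPKM replicate block) and Itgb1 (0.049, 0.050 and 0.049 with log2(FPKM + 1), log2(FPKM + 0.1) and the FPKM replicate block). Leaving out 1 library changed the sign of 17 members, and their log2 differences ranged over the 4 omissions from -0.039 to 3.52 for Col4a5, -0.54 to 0.45 for Col7a1, -2.36 to 1.38 for Col15a1, -1.53 to 0.69 for Col17a1, -0.20 to 0.63 for Lama1, -0.90 to 1.55 for Lama3, -0.11 to 0.22 for Lama4, -0.23 to 4.63 for Lama5, -1.14 to 1.26 for Lamb3, -0.59 to 0.15 for Lamc1, -0.12 to 0.48 for Nid2, -0.077 to 0.66 for Agrn, -0.24 to 0.56 for Dag1, -0.35 to 0.045 for Itga5, -1.09 to 0.96 for Itga6, -0.16 to 0.082 for Itgb1 and -1.60 to 0.50 for Itgb6. Without cHet_0, 5 members passed the adjusted threshold in limma, with 3 higher (Itga3, Lama5 and Nid1) and 2 lower (Hspg2 and Itga2); with any other library left out 0 passed, so that counts over the omissions were 0 to 3 higher and 0 to 2 lower. Calls over all genes ranged from 0 to 1061 higher and from 0 to 78 lower over the omissions, and were 3 higher and 4 lower with log2(FPKM + 1) and 1 and 1 with log2(FPKM + 0.1).

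FPKM per scaled count followed the column number, so overlap of the groups in FPKM also holds differences between column numbers. The members without overlap numbered 2 higher (Col4a1 and Col4a2) and 5 lower (Fras1, Hspg2, Itga11, Itga2 and Itgb5) in FPKM, with either pseudocount, where 11.2% and 8.75% of all genes did not overlap. They ranged from 9 to 20 higher and from 12 to 17 lower with 1 library left out, where a lone library cannot overlap itself and 27.7% to 46.7% and 26.8% to 32.8% of all genes did not overlap. Median-of-ratios rescaling moved the median of all genes by -0.10, and 5 members were then higher and 11 lower without overlap, with Itgb1 and Itgb4 added on the lower side and Lamc3 lost on the higher. The median of other basement membrane genes was -0.034 and -0.029 with the rescalings and ranged from -0.094 to 0.19 over the omissions. That of other integrins was -1.04 over genes that averaged 1000 scaled counts or more and ranged from 0.27 to 3.42 over the omissions. That of the adhesion complex was 0.11 at that minimum and ranged from -0.014 to 0.27, and that of matrix receptors ranged from -0.39 to 0.010. Where no cause is given in the text, the cause was not tested.

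With the number in the column name as a replicate block, 0 members and 0 genes passed on scaled counts, and 0 higher and 1 lower on log2(FPKM + 1), chosen after seeing the data; members without overlap were then 2 higher and 5 lower. The labels do not say that a number marks a shared litter or day, so the numbers were not taken as pairs. In scaled counts, same-numbered libraries deviated together at a correlation of 0.049 across genes. FPKM per scaled count did follow the number, correlating at 0.999 between cHet_0 and cKO_0 and at 0.995 between cHet_1 and cKO_1. What the number stands for is not given in the labels. The count-based alternatives were not run, since no count table has columns that match the labels.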

Other observations

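Lama3 and Col15a1 shared an order of libraries that followed the column number, which was singled out after their values were seen. The order was not particular to them. Col17a1, Itga6, Itgb6, Lamc1 and Lama4 also had cHet_1 and cKO_1 both above cHet_0 and cKO_0. In Itgb1, Lama2, Nid2 and Dag1 cHet_1 and cKO_1 both lay below cHet_0 and cKO_0. Lama3 stood at 1757 and 2479 in cHet_0 and cKO_0 and at 9617 and 10687 in cHet_1 and cKO_1. Col15a1 stood at 138 and 60.3 in cHet_0 and cKO_0 and at 743 and 841 in cHet_1 and cKO_1. Lamb3 did not share the order of Lama3 and Col15a1, with 9403, 7977, 3937 and 20814 in cHet_0, cHet_1, cKO_0 and cKO_1. In FPKM, Lamb3 exceeded Lama3 by 13.9-fold, 3.35-fold, 4.24-fold and 7.38-fold in the same libraries. Lamb1, the laminin beta-1 chain gene and not among the 41, stood at 36868 and 22678 in cHet against 37164 and 30827 in cKO, which overlapped.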
